A study of Mus musculus with 14 samples.

Results

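The genes described here encode cytokines, a receptor antagonist (Il1rn) and an acute-phase protein (Saa3): Il6, Il11, Lif, Il1a, Il1b, Il1rn, Il33, Tnf, Csf1 and Saa3. They were taken from the gene count table by symbol, through their Ensembl identifiers with the version number removed, and are 10 of its 52636 genes. All 10 passed the filter on low counts, which left 18394 genes. The libraries came from cells sorted by fluorescence-activated cell sorting out of mouse dermis. Every group shared the strain (C57/BL6), the sex (male), the age (7 weeks) and the site, a wound bed 5 days after injury, and no unwounded skin or other time point was analysed here. Each of 7 groups had 2 libraries. The newly deposited set held AdipoqTraced cells, which the labels describe as GFP, CD26 cells and Adipocyte cells. The other set, marked in the labels as analysed again from an earlier series, held CD29 cells (CD29-high in the file headers), DN cells (CD29-low in the file headers), AP_CD9High cells and AP_CD9Low cells. The labels do not spell out AP or DN. They do not state the sorting gates or the allele that carries the tracing. The sets have no group in common, so set and group cannot be told apart, and comparisons were made only within a set.

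Interleukin 6, interleukin 11 and leukaemia inhibitory factor bind receptors that share the chain gp130 and signal through JAK kinases and STAT3. Interleukin 1 alpha and beta act through the interleukin 1 receptor and NF-kappa B, and the product of Il1rn blocks that receptor. Interleukin 33 is a nuclear protein of barrier and stromal cells that alerts immune cells through the receptor ST2 when it is released. Tumour necrosis factor is made mostly by macrophages, and colony-stimulating factor 1 keeps macrophages alive. Serum amyloid A3 is an acute-phase protein made outside the liver in mice. In skin wounds, the early inflammatory signals come from resident and arriving leukocytes and also from fibroblasts, fat cells and keratinocytes.

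Total counts lay between 13760557 and 22218364 per library. Levels are given as CPM (counts scaled to a common library size) after TMM scaling, which corrects for differences in library composition, and in each pair of values replicate 1 stands before replicate 2. Mitochondrial genome genes held 18.45% and 26.74% of the counts in AdipoqTraced and 35.45% and 38.77% in CD26, against 79.07% and 84.79% in Adipocyte, where 2952186 and 3255546 counts were left for other genes. In the other set they held 0.19% to 0.94%. Adipocyte markers summed to 46.7 to 59.4 CPM in AdipoqTraced and 18.2 to 33.4 CPM in CD26, against 4659 to 7283 CPM in Adipocyte. Fibroblast markers summed to 37101 to 48629 CPM in AdipoqTraced and 52777 to 60567 CPM in CD26, against 4971 to 11014 CPM in Adipocyte. In the other set they summed to 33345 to 39765 CPM in CD29 and 33655 to 39412 CPM in DN, against 69483 to 71092 CPM in the AP libraries. The 12 macrophage and monocyte markers, among them Adgre1 and Cd68, were detected in every group of both sets. In bulk libraries such as these, fewer cells of a type and less RNA per cell cannot be told apart.

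Within the CD29, DN and AP groups, 8 of the 10 genes split into opposite patterns, while Il11 and Lif were not called. Il6, Il33, Saa3 and Csf1 were lower in CD29 and DN than in AP, and Il1a, Il1b, Il1rn and Tnf were higher. AP here is the mean of AP_CD9High and AP_CD9Low, and both comparisons share those 4 libraries. The AP_CD9High, AP_CD9Low and CD29 libraries carry the same numbers in the descriptions, and DN shares the number 2. The libraries of these groups may therefore not all be separate samples. The groups of the newly deposited set share their numbers too. Thus 4 of 10 genes were called higher in CD29 and 4 lower, where 4.41% of all tested genes were called, 2.53% higher and 1.88% lower. The count was likewise 4 higher and 4 lower in DN, where 6.74% of all tested genes were called, 4.56% higher and 2.18% lower. Calls were made at an adjusted p under 0.05 in edgeR's quasi-likelihood test with Benjamini-Hochberg adjustment over all tested genes. The count in CD29 depended on a setting of that test. With the legacy setting of edgeR, 4 of the 10 genes were called in CD29 against AP, beside 383 of all tested genes. The libraries did not overlap for 8 of 10 genes in CD29 against AP and 8 of 10 in DN against AP, against 23.9% and 26.7% of all tested genes. The median log2 fold change of the 10 genes was 0.26 in CD29 against AP and -0.06 in DN against AP, beside 0.10 and 0.00 over all tested genes.

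**Figure D1:**
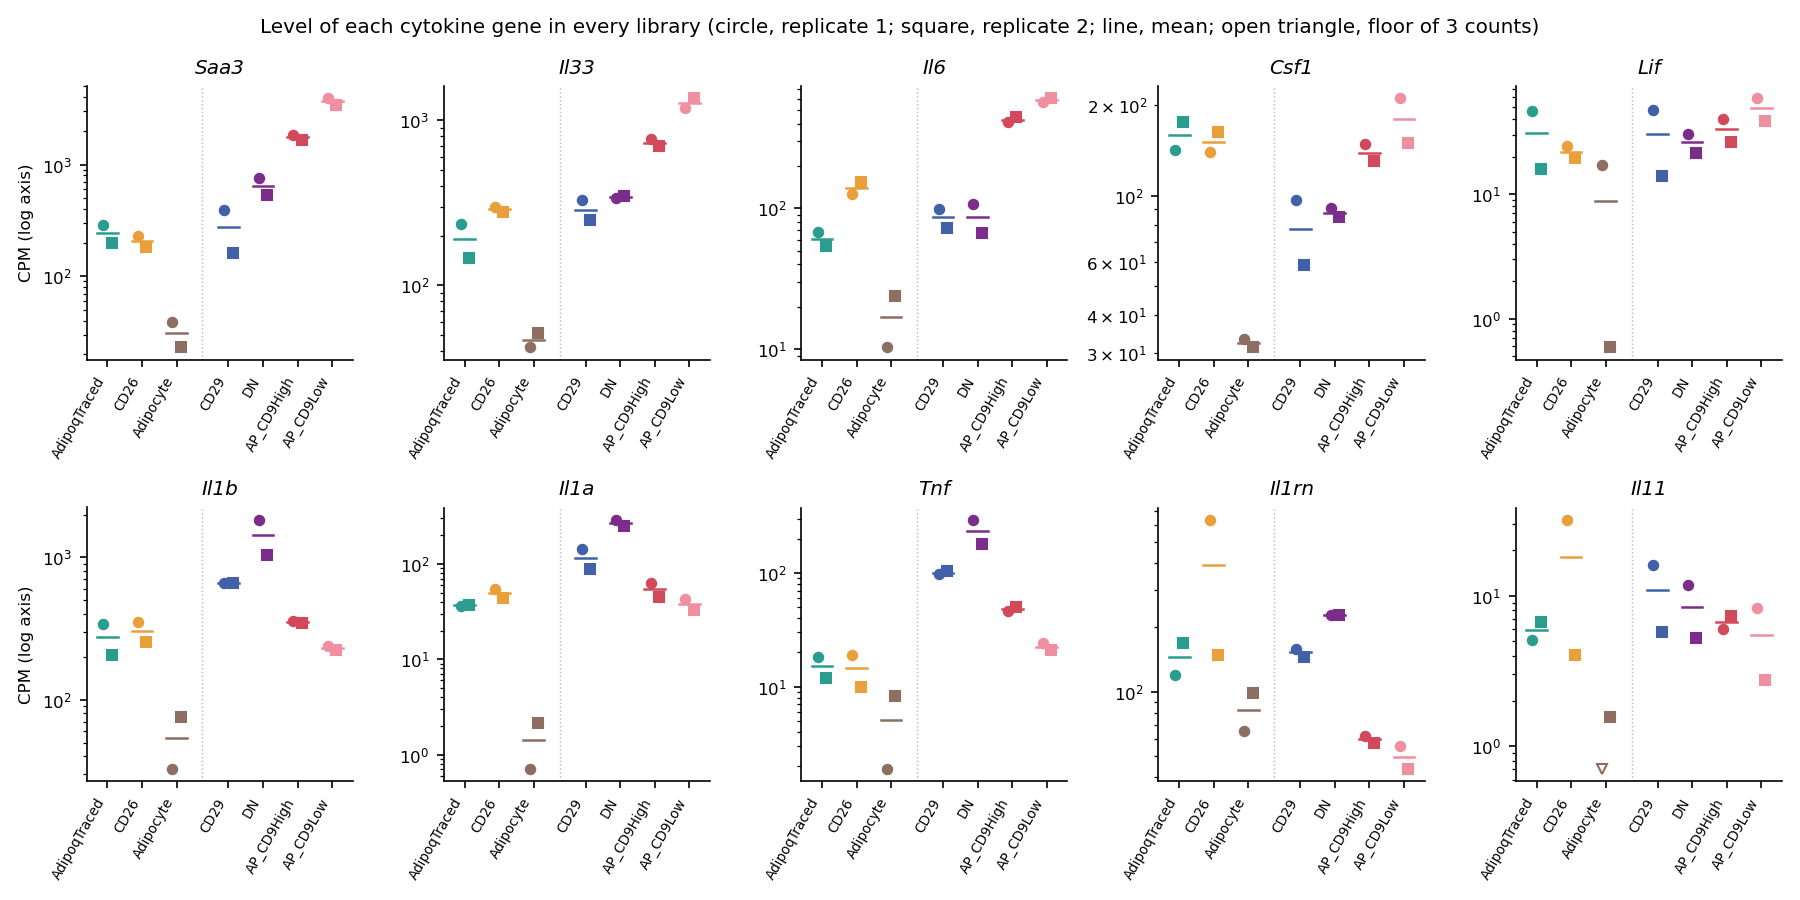
Level of each of the 10 genes in CPM (log axis) in every library, with circles for replicate 1, squares for replicate 2, a line at the group mean and an open triangle at the floor of 3 counts where a library was at 0. The dotted line parts the newly deposited set on the left from the set analysed again on the right. On the right, Il6, Il33 and Saa3 stand higher in both AP groups than in CD29 and DN, and Il1a, Il1b, Il1rn and Tnf stand lower.

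Saa3 (ENSMUSG00000040026, chromosome 7, 46711998 to 46715700 on mm10, GENCODE M21) was lower in CD29 and DN than in every AP library. It had 395 and 161 CPM in CD29, 761 and 536 CPM in DN, 1842 and 1671 CPM in AP_CD9High, and 3899 and 3431 CPM in AP_CD9Low. The 4 groups did not overlap, and they ran in the order AP_CD9Low, AP_CD9High, DN and CD29. Saa3 fell by 3.19 on the log2 scale in CD29 against AP (SE 0.33, adjusted p = 1.47e-05 in edgeR, n = 2 against 4), and by 1.97 in DN against AP (SE 0.31, adjusted p = 0.000491).

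Il6 (ENSMUSG00000025746, chromosome 5, 30013114 to 30019981) was likewise lower in CD29 and DN than in every AP library. It had 99.8 and 72.6 CPM in CD29, 107 and 67.0 CPM in DN, 408 and 445 CPM in AP_CD9High, and 569 and 603 CPM in AP_CD9Low. All 4 AP libraries lay above all CD29 and DN libraries, while CD29 and DN overlapped. The gene was 5.79-fold lower in CD29 than in AP (log2 fold change -2.53, SE 0.27, adjusted p = 2.23e-05 in edgeR). The log2 fold change in DN against AP was -2.52 (SE 0.27, adjusted p = 1.95e-05 in edgeR). Il33 (ENSMUSG00000024810, chromosome 19, 29925114 to 29960718) had 327 and 248 CPM in CD29, 339.5 and 346 CPM in DN, 769.8 and 697 CPM in AP_CD9High, and 1184 and 1359 CPM in AP_CD9Low. Again the AP libraries lay above the rest. Il33 fell by 1.75 on the log2 scale in CD29 against AP (SE 0.22, adjusted p = 0.000108 in edgeR) and by 1.49 in DN against AP (SE 0.22, adjusted p = 0.000276 in edgeR).

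Csf1 (ENSMUSG00000014599, chromosome 3, 107741048 to 107760469) had 96.6 and 58.8 CPM in CD29, 90.7 and 84.6 CPM in DN, 148 and 129.8 CPM in AP_CD9High, and 210.0 and 149 CPM in AP_CD9Low. The AP libraries were the higher ones, by a smaller margin than for Il6. Its log2 fold change was -1.02 in CD29 against AP (SE 0.25, adjusted p = 0.024 in edgeR). In DN against AP it was -0.85 (SE 0.25, adjusted p = 0.0488 in edgeR). Both calls were fragile: that in DN was kept in 3 of 15 alternatives (adjusted p 0.0231 to 0.31) and that in CD29 in 8 of 15 (adjusted p 0.00267 to 0.424). The value in CD29 was -0.70 without CD29 replicate 2, -0.89 without AP_CD9Low replicate 1, -0.96 without AP_CD9High replicate 1 and -1.08 without AP_CD9High replicate 2, none of them called. In DN, leaving out AP_CD9Low replicate 1, either AP_CD9High library or either DN library ended the call, with log2 fold changes of -0.92 to -0.74.

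The interleukin 1 genes and Tnf ran the other way, highest in DN. Il1b (ENSMUSG00000027398, chromosome 2, 129364570 to 129371139) had 656 and 658 CPM in CD29, 1832 and 1038 CPM in DN, 356 and 345 CPM in AP_CD9High, and 240.3 and 223 CPM in AP_CD9Low. No 2 of these groups overlapped, although the DN libraries differed from each other 1.77-fold. Il1b rose by 2.33 on the log2 scale in DN against AP (SE 0.26, adjusted p = 2.42e-05 in edgeR). In CD29 against AP it rose by 1.2 (SE 0.26, adjusted p = 0.0104 in edgeR), a call lost without AP_CD9High replicate 2 (adjusted p = 0.0506), CD29 replicate 1 (0.0942) or CD29 replicate 2 (0.0967), at log2 fold changes of 1.18, 1.21 and 1.21. The legacy setting of edgeR also ended it (adjusted p = 0.0629). Il1a (ENSMUSG00000027399, chromosome 2, 129299610 to 129309972) had 142 and 88.1 CPM in CD29, 289 and 249.7 CPM in DN, 63.2 and 44.6 CPM in AP_CD9High, and 43.2 and 32.6 CPM in AP_CD9Low. Its groups had the same order as those of Il1b and did not overlap. Il1a rose by 2.57 in DN against AP (SE 0.24, adjusted p = 3.21e-06 in edgeR). The rise in CD29 against AP was 1.35 (SE 0.24, adjusted p = 0.00213 in edgeR), or 0.96 and not called without CD29 replicate 1 (adjusted p = 0.172). An antisense gene overlaps each of Il1a and Il1b, but with 484 and 348 counts over all libraries, against 29395 and 169028 counts for Il1a and Il1b. Nothing in the labels states whether the counting used strand.

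Tnf (ENSMUSG00000024401, chromosome 17, 35199381 to 35202007) had 97.7 and 104 CPM in CD29, 294 and 179 CPM in DN, 46.7 and 50.6 CPM in AP_CD9High, and 24.0 and 21 CPM in AP_CD9Low. The groups were again apart from one another, in the order DN, CD29, AP_CD9High and AP_CD9Low. Tnf was 7.16-fold higher in DN than in AP (log2 fold change 2.84, SE 0.28, adjusted p = 7.13e-06 in edgeR). The log2 fold change in CD29 against AP was 1.61 (SE 0.28, adjusted p = 0.00213 in edgeR, or 0.0578 with the legacy setting of edgeR). Il1rn (ENSMUSG00000026981, chromosome 2, 24336853 to 24351494) had 159 and 146 CPM in CD29, 229 and 228 CPM in DN, 62.3 and 57.6 CPM in AP_CD9High, and 55.8 and 43.6 CPM in AP_CD9Low. The antagonist gene thus ran with the genes of the ligands it opposes. Its log2 fold change was 2.06 in DN against AP (SE 0.36, adjusted p = 0.00132 in edgeR) and 1.49 in CD29 against AP (SE 0.36, adjusted p = 0.023 in edgeR). With the replicate number of the descriptions added to the fit, the value in DN was 1.97 and not called (adjusted p = 0.103 in edgeR). The call in CD29 was lost when any 1 of the 6 libraries was left out, at log2 fold changes of 1.40 to 1.57 and adjusted p-values of 0.0621 to 0.192, and with the legacy setting (adjusted p = 0.074).

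Markers of several other cell types were also higher in CD29 and DN than in AP, though not all were highest in DN. Summed macrophage and monocyte markers lay at 3449 to 3925 CPM in CD29 and 8347 to 9447 CPM in DN, against 987 to 2073 CPM in the AP libraries. Of the 12 markers, 9 were called higher in CD29 against AP and 11 in DN against AP, where 4.41% and 6.74% of all tested genes were called. Neutrophil markers summed to 86.4 to 123 CPM in CD29 and 223 to 567 CPM in DN, against 38.1 to 83.2 CPM in AP, with Ly6g at 0 in every group but DN. Mast cell markers summed to 37.3 to 61.2 CPM in CD29 and 291 to 378 CPM in DN, against 0 to 8.86 CPM in AP. Of 6 tested markers in each list, 0 neutrophil and 4 mast cell markers were called higher in CD29, and 5 and 6 in DN, while 0 of 4 T cell markers were called in either. Leukocytes were not the only such cells. Pericyte and smooth muscle markers summed to 210.3 to 260.2 CPM in CD29 and 84.3 to 89.3 CPM in DN, against 1.16 to 14 CPM in AP, with 5 of 5 called higher in CD29 and 4 of 5 in DN. Keratinocyte markers summed to 30.5 to 179 CPM in CD29 and 66.9 to 1406 CPM in DN, against 6.19 to 27.3 CPM in AP, with 0 of 5 and 3 of 5 called higher and with Krt1 and Dsp at 0 in AP. Endothelial markers summed to 23.4 to 53.7 CPM in CD29 and 42.1 to 104 CPM in DN, against 12.2 to 17.6 CPM in AP, with 2 of 5 and 3 of 5 called higher. The fibroblast sum, mostly Col1a1 and Col1a2, was lower in CD29 and DN. Of its 6 markers 3 were called lower in each comparison, and 1, Thy1, was called higher in CD29 (40.4 and 33.8 CPM in CD29, against 7.34 to 25.5 CPM in AP). The part of these cell types in the levels of the 10 genes was not tested.

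**Figure D2:**
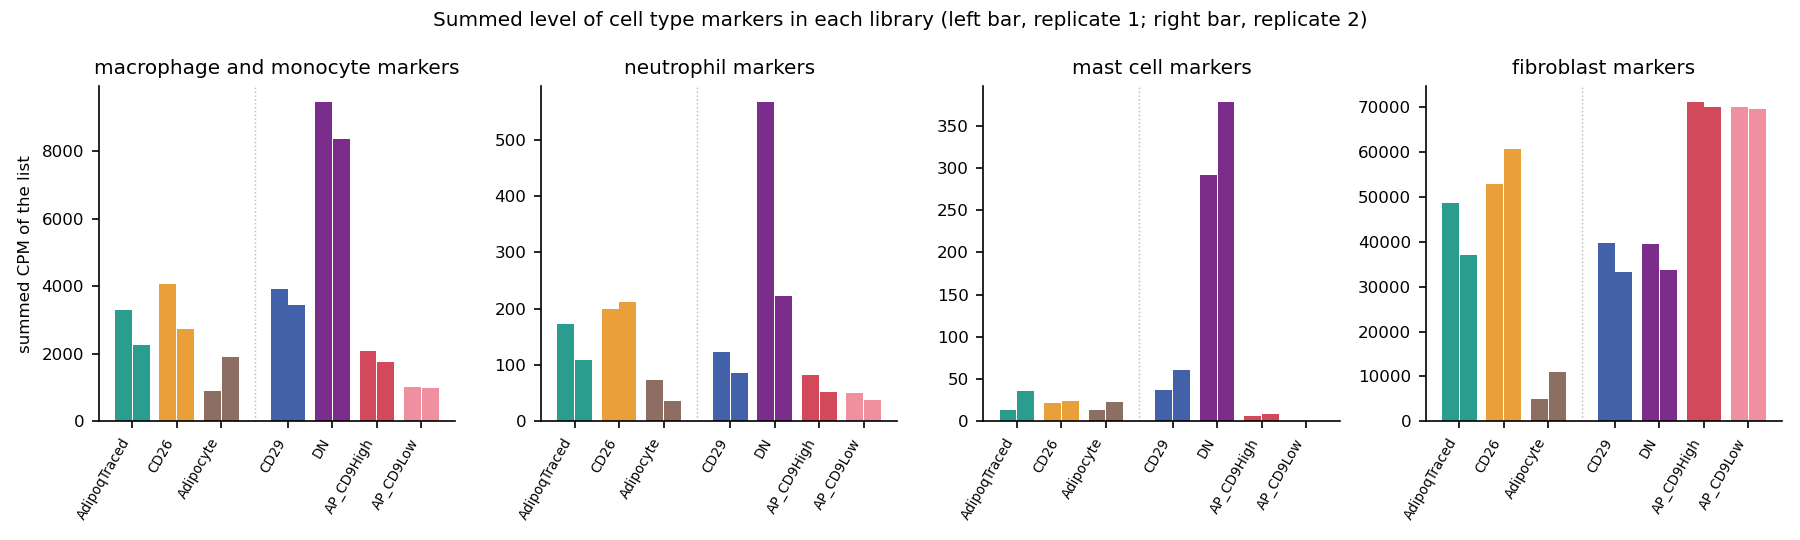
Summed CPM of 4 marker lists in every library (left bar, replicate 1, and right bar, replicate 2), with the newly deposited set left of the dotted line. In the set on the right, macrophage and monocyte markers reach 8347 to 9447 CPM in DN against 987 to 2073 CPM in the AP libraries, and fibroblast markers 33655 to 39412 CPM in DN against 69483 to 71092 CPM in AP.

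Between the AP groups, none of the 10 genes was called in AP_CD9High against AP_CD9Low, where 0.0217% of all tested genes were called, 0.0163% higher and 0.00544% lower. At an unadjusted p under 0.05 edgeR gave 3 of the 10 genes and 669 of all tested genes, and DESeq2 called 0 of the 10. Those 3 were Saa3 (log2 fold change -1.06, SE 0.32, unadjusted p = 0.00437, adjusted p = 1), Il33 (-0.79, SE 0.23, unadjusted p = 0.00354, adjusted p = 1) and Tnf (1.11, SE 0.36, unadjusted p = 0.00632, adjusted p = 1). Libraries of the AP groups did not overlap for 8 of the 10 genes, against 27.0% of all tested genes, and the exceptions were Lif and Il11. Macrophage and monocyte markers summed to 1764 to 2073 CPM in AP_CD9High and 987 to 1015 CPM in AP_CD9Low, in the same order as Tnf, Il1a, Il1b and Il1rn, and what part they had was not tested.

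CD29 and DN also had no call among the 10 genes, where 0.0598% of all tested genes were called, 0.0109% higher and 0.0489% lower. The libraries did not overlap for 6 of 10 genes, against 36.6% of all tested genes. At an unadjusted p under 0.05, 4 of the 10 genes stood out in edgeR, beside 1457 of all tested genes, and DESeq2 called 1, Il1a. The log2 fold changes of CD29 against DN were -1.23 for Il1a (adjusted p = 0.149 in edgeR), -1.23 for Tnf (adjusted p = 0.253), -1.22 for Saa3 (adjusted p = 0.253) and -1.13 for Il1b (adjusted p = 0.278). Saa3 was thus lower in both CD29 libraries than in both DN libraries, as were the interleukin 1 genes and Tnf, although Saa3 and those genes differed from AP in opposite directions.

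**Figure D3:**
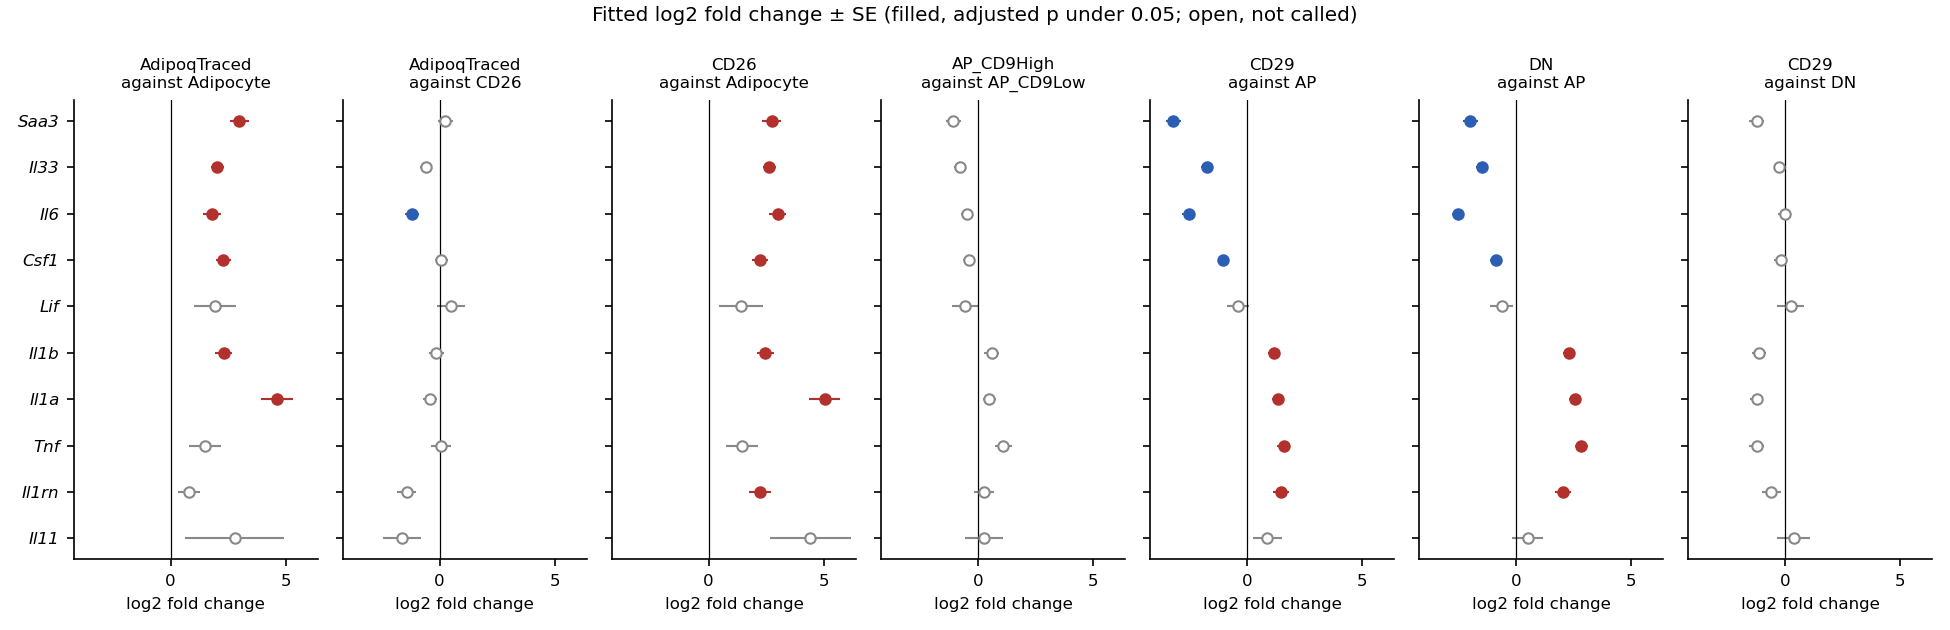
Fitted log2 fold change with its SE for the 10 genes in each of the 7 comparisons, filled where the adjusted p was under 0.05 and open where it was not. Values right of 0 are higher in the group named first. Il6, Il33 and Saa3 lie left of 0 and Il1a, Il1b, Il1rn and Tnf right of 0 in CD29 and in DN against AP, whereas the genes called against Adipocyte all lie right of 0.

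The base sequences ahead of Il6, Saa3, Il1b and Tnf are shown as examples of genes lower (Il6, Saa3) and higher (Il1b, Tnf) in CD29 and DN than in AP. All 10 genes matched the RefSeq promoter table of build GRCm38.p6, which gives 250 bases before to 50 bases after each gene's start, 5′ to 3′ on the strand of the gene. Il1rn had 3 windows there, and Il11 and Il33 had 2 each. For each gene only the window nearest to its GENCODE start was searched, so the other windows may hold further matches. Capitals mark matches to a kappa B motif or to the C/EBP-type motif TTNNGNAA on either strand. Il6 is shown from chr5:30012864-30013163 on the plus strand, Saa3 from chr7:46715627-46715926 on the minus strand, Il1b from chr2:129371090-129371389 on the minus strand and Tnf from chr17:35201958-35202257 on the minus strand.
Il6: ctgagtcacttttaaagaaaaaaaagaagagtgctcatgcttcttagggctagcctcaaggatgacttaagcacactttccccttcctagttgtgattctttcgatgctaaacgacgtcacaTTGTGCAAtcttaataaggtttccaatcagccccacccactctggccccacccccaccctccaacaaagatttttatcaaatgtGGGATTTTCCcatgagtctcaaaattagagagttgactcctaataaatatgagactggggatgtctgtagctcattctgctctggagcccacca
Saa3: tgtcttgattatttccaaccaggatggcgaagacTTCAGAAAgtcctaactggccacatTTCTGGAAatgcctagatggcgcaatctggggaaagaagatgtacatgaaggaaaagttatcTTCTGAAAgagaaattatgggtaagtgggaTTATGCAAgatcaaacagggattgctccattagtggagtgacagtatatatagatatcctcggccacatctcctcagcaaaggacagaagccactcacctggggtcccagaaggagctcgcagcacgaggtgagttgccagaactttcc
Il1b: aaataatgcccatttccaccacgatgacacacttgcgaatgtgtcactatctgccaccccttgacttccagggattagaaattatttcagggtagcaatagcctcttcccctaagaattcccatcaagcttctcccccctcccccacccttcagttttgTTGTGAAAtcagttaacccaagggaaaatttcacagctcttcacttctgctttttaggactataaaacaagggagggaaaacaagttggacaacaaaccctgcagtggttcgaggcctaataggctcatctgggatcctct
Tnf: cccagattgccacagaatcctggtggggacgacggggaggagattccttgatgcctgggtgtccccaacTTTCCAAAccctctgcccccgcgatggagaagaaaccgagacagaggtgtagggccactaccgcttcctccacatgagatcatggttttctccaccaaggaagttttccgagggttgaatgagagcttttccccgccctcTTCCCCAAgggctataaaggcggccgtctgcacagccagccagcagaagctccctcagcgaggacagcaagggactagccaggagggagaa

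Matches are descriptions of letters, not of bound sites. The kappa B motif was in the windows of 3 of the 10 genes (Il6, Lif and Csf1) and in 8.46% of the 32851 windows of the table, both strands searched. In Il6 it starts 44 bases before the gene's start. TTNNGNAA was in the windows of 6 genes (Il6, Il1a, Il1b, Il33, Tnf and Saa3) and in 40.7% of all windows. Saa3 held 4 such matches, and 1.16% of all windows held 4 or more. The AP-1 motif TGANTCA was in 4 (Il6, Il1a, Il1rn and Lif) and in 7.81% of all windows, and each match reads as the motif on both strands. TATAAA on the gene's strand was in 4 (Il1a, Il1b, Il33 and Tnf) and in 8.32% of all windows, and the STAT-type motif TTCNNNGAA was in 0 of the 10 and in 8.30% of all windows. Counted from the gene's start, TATAAA began at -32 in Il1a, -31 in Il1b and -29 in Tnf, but at -203 in Il33. No match overlapped a match of another motif. Il6, Il33 and Saa3 shared TTNNGNAA with Il1a, Il1b and Tnf. Of the genes lower in CD29 and DN, Il6 and Csf1 had kappa B letters in these windows and Il33 and Saa3 did not, nor did any of Il1a, Il1b, Il1rn and Tnf.

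In the newly deposited set, every one of these genes that was called against Adipocyte was higher. Il6, Il1a, Il1b, Il33, Csf1 and Saa3 were called in AdipoqTraced and in CD26, and Il1rn in CD26. In AdipoqTraced against Adipocyte, 6 of 10 genes were called higher and 0 lower, where 10.5% of all tested genes were called, 5.61% higher and 4.88% lower. In CD26 against Adipocyte, 7 of 10 were called higher and 0 lower, where 10.7% of all tested genes were called, 5.45% higher and 5.21% lower. The groups did not overlap for 9 and 10 of the 10 genes in these comparisons, against 45.2% and 50.9% of all tested genes. The median log2 fold change of the 10 genes was 2.16 in AdipoqTraced and 2.54 in CD26 against Adipocyte, beside 0.19 and 0.24 over all tested genes. Both comparisons share the Adipocyte libraries, in which the median of all genes depends on the scaling: with library size alone it was 2.25 in AdipoqTraced and 1.95 in CD26, and 97.0% and 95.4% of all calls were then higher, against 53.4% and 51.1%. All 10 genes were then called higher in both comparisons.

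Il6 had 67.8 and 54.3 CPM in AdipoqTraced and 126 and 154 CPM in CD26, against 10.3 and 23.8 CPM in Adipocyte. The 3 groups did not overlap, and CD26 was highest. Il6 rose by 1.8 on the log2 scale in AdipoqTraced against Adipocyte (SE 0.40, adjusted p = 0.00559 in edgeR), or by 1.42 without Adipocyte replicate 1, then not called (adjusted p = 0.105). Its rise in CD26 against Adipocyte was 3.0 (SE 0.38, adjusted p = 4.05e-05 in edgeR). Saa3 had 288 and 197 CPM in AdipoqTraced and 228 and 183 CPM in CD26, against 39.2 and 23.1 CPM in Adipocyte. AdipoqTraced and CD26 overlapped, and both lay above Adipocyte. Saa3 rose by 2.98 in AdipoqTraced (SE 0.41, adjusted p = 9.22e-05 in edgeR) and by 2.74 in CD26 (SE 0.41, adjusted p = 0.000206 in edgeR).

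Il33 had 236 and 146 CPM in AdipoqTraced and 299 and 279 CPM in CD26, against 41.8 and 51.4 CPM in Adipocyte. Csf1 had 142 and 175 CPM in AdipoqTraced and 139 and 163 CPM in CD26, against 33.3 and 31.3 CPM in Adipocyte. Both genes were thus several-fold higher in all 4 libraries of AdipoqTraced and CD26. Il33 rose by 2.03 in AdipoqTraced (SE 0.28, adjusted p = 0.000101 in edgeR) and by 2.63 in CD26 (SE 0.28, adjusted p = 6.65e-06 in edgeR). The rises of Csf1 were 2.30 (SE 0.34, adjusted p = 0.000205 in edgeR) and 2.22 (SE 0.34, adjusted p = 0.000274 in edgeR). These 2 genes, with Il1a, Il1b and Saa3, kept their calls against Adipocyte in each of the 13 alternatives of both comparisons.

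Il1b had 343 and 207 CPM in AdipoqTraced and 349 and 256 CPM in CD26, against 32.6 and 75.4 CPM in Adipocyte. Il1a had 36.3 and 37.3 CPM in AdipoqTraced and 54.2 and 44.1 CPM in CD26, against 0.705 and 2.15 CPM in Adipocyte. Il1a had the largest fitted change of the 10 genes in both comparisons, at a level of a few counts in Adipocyte. It rose by 4.62 in AdipoqTraced (SE 0.71, adjusted p = 0.000172 in edgeR) and by 5.04 in CD26 (SE 0.68, adjusted p = 4.4e-05 in edgeR). The rises of Il1b were 2.32 (SE 0.37, adjusted p = 0.00033 in edgeR) and 2.46 (SE 0.37, adjusted p = 0.000189 in edgeR). Il1rn had 120.0 and 169.7 CPM in AdipoqTraced and 634 and 149 CPM in CD26, against 65.5 and 98.5 CPM in Adipocyte. The CD26 libraries differed 4.24-fold in Il1rn, and 1 of them decided the value. The log2 fold change of CD26 against Adipocyte was 2.25 (SE 0.48, adjusted p = 0.00421 in edgeR), but 0.88 without CD26 replicate 1 (adjusted p = 0.168) and 2.11 without Adipocyte replicate 1 (adjusted p = 0.0973). In AdipoqTraced against Adipocyte it was 0.81 and not called (adjusted p = 0.35).

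Tnf had 18.4 and 11.9 CPM in AdipoqTraced and 19.0 and 9.89 CPM in CD26, against 1.88 and 8.21 CPM in Adipocyte. Its libraries did not overlap with Adipocyte, but neither difference was called. The log2 fold changes were 1.51 in AdipoqTraced (adjusted p = 0.201 in edgeR) and 1.46 in CD26 (adjusted p = 0.232 in edgeR), and DESeq2 called both (adjusted p = 0.0308 and 0.0298). Macrophage and monocyte markers summed to 2254 to 3300.2 CPM in AdipoqTraced and 2747 to 4055 CPM in CD26, against 896 to 1901 CPM in Adipocyte, and 5 of the 12 were called higher in each comparison. Keratinocyte markers summed to 336 to 555 CPM in AdipoqTraced and 490.1 to 1409 CPM in CD26, against 48.1 to 114 CPM in Adipocyte, with 1 of 5 and 3 of 5 called higher. All 6 fibroblast markers were called higher in both comparisons, where 10.5% and 10.7% of all tested genes were called. Neutrophil markers summed to 109 to 173 CPM in AdipoqTraced and 199.8 to 212 CPM in CD26, against 36.1 to 72.8 CPM in Adipocyte, with 0 and 2 of 6 called higher. The part of these cell types in the differences of the cytokine genes was not tested.

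AdipoqTraced and CD26 cells differed in the call of 1 gene. In AdipoqTraced against CD26, 0 of 10 genes were called higher and 1 lower, where 3.85% of all tested genes were called, 2.37% higher and 1.48% lower. The libraries did not overlap for 3 of 10 genes, against 41.4% of all tested genes, and the median log2 fold change was -0.28, beside 0.00 over all tested genes. Il6, the gene called, was 2.29-fold lower in the AdipoqTraced libraries, a log2 fold change of -1.2 (SE 0.29, adjusted p = 0.0309 in edgeR). That call was lost in 10 of 13 alternatives, at log2 fold changes between -1.39 and -0.84. Without AdipoqTraced replicate 1, AdipoqTraced replicate 2, CD26 replicate 1 or CD26 replicate 2 the log2 fold change was -1.39, -1.05, -1.35 or -1.09, none called (adjusted p 0.0809 to 0.227). Il1rn had a log2 fold change of -1.44 (SE 0.43, adjusted p = 0.076 in edgeR), or -2.17 and called without CD26 replicate 2 (adjusted p = 0.00683). The log2 fold change was 0.24 for Saa3 (SE 0.33), 0.08 for Csf1 (SE 0.28), -0.60 for Il33 (SE 0.24) and -0.42 for Il1a (SE 0.32), none called. For Il1b it was -0.14 (SE 0.31), or 0.19 with library size alone as the scaling, and for Tnf 0.05 (SE 0.44), or -0.02 with DESeq2 size factors. A p that misses the threshold does not show that the groups are alike.

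Il11 and Lif were not called by edgeR in any of the 7 comparisons. Il11 (ENSMUSG00000004371, chromosome 7, 4772373 to 4782859) had 5.09 and 6.69 CPM in AdipoqTraced and 31.9 and 4.01 CPM in CD26, against 0 and 1.56 CPM in Adipocyte, where a count of 0 allows up to 0.705 CPM. The CD26 libraries differed 7.94-fold, and CD26 against Adipocyte was called by DESeq2 (adjusted p = 0.0028) and, without CD26 replicate 2, by edgeR (adjusted p = 0.0376). It had 16.1 and 5.77 CPM in CD29, 11.7 and 5.24 CPM in DN, 6.04 and 7.32 CPM in AP_CD9High, and 8.23 and 2.76 CPM in AP_CD9Low, and all 4 groups overlapped with their neighbours in level. Lif (ENSMUSG00000034394, chromosome 11, 4257557 to 4272514) had 46.2 and 15.9 CPM in AdipoqTraced and 24.4 and 19.4 CPM in CD26, against 17.1 and 0.586 CPM in Adipocyte. It had 47.0 and 13.9 CPM in CD29, 30.6 and 21.4 CPM in DN, 40.3 and 26.3 CPM in AP_CD9High, and 58.5 and 38.7 CPM in AP_CD9Low. The replicates of Lif differed 29.2-fold in Adipocyte, where replicate 2 had 3 counts, and between 1.26-fold and 3.37-fold in the other groups. Among the alternatives, Lif was called only with library size alone, against Adipocyte (adjusted p = 0.0012 in AdipoqTraced and 0.0117 in CD26).

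Levels were also set on a scale of CPM per kilobase of exon, to compare genes with one another. The length joins all annotated exons of a gene (2606 bases for Saa3 and 5535 for Il1rn), and a transcript can be shorter. The order of the genes and the ratios below depend on that choice. In CPM alone, mean Il1rn exceeded mean Il1b in Adipocyte (82.0 against 54.0) and CD26 (392 against 302). Per kilobase, Il1b had the highest level in 5 of the 7 groups. It stood at 144 CPM per kilobase in AdipoqTraced, 159 in CD26, 344 in CD29, 752 in DN and 28.3 in Adipocyte. Saa3 led in the AP groups, at 674 CPM per kilobase in AP_CD9High and 1406 in AP_CD9Low. Il33 came second there, at 254 and 441 CPM per kilobase. Tnf stood behind only Il1b and Saa3 in DN, at 144 CPM per kilobase, and at 13.7 CPM per kilobase in AP_CD9Low. Il11 was last everywhere except in CD26, where Lif was last. The ratio of Il1rn to the sum of Il1a and Il1b, each per kilobase, was 0.109 and 0.241 in AdipoqTraced and 0.545 and 0.172 in CD26, against 0.677 and 0.438 in Adipocyte. In the other set it was 0.0692 and 0.0679 in CD29, 0.0373 and 0.0614 in DN, 0.0514 and 0.0512 in AP_CD9High, and 0.0682 and 0.0590 in AP_CD9Low. The ratio was highest in Adipocyte and CD26 replicate 1 and varied within 0.0373 to 0.0692 in the other set, although Il1b itself ranged there between 223 and 1832 CPM.

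Receptors for these ligands were followed as a list of 11 genes. In AdipoqTraced against Adipocyte 5 of 11 were called higher and 0 lower, and in CD26 against Adipocyte likewise 5 and 0. The shares called over all tested genes were 10.5% and 10.7%. The median log2 fold changes of the list were 0.97 and 1.41, beside 0.19 and 0.24 over all tested genes. Il1rl1, which encodes the interleukin 33 receptor ST2, had 332 and 348 CPM in AdipoqTraced and 297 and 383 CPM in CD26, against 1.17 and 8.21 CPM in Adipocyte. Ligand and receptor gene of this pair were thus both higher in these libraries, but bulk libraries do not show whether the same cells express both. The log2 fold change of Il1rl1 was 6.09 in each comparison (SE 0.94, adjusted p = 0.000596 and 0.000624 in edgeR). Il6ra, the binding chain of the interleukin 6 receptor, had 19.1 and 26.1 CPM in AdipoqTraced, against 107 and 107 CPM in CD26 (log2 fold change -2.25, SE 0.41, adjusted p = 0.00721 in edgeR), the 1 receptor gene called between them. Over all tested genes 3.85% were called in that comparison.

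Il11ra1, the binding chain of the interleukin 11 receptor, was 3.93-fold lower in CD29 than in AP (log2 fold change -1.97, SE 0.23, adjusted p = 3.92e-05 in edgeR). It had 74.3 and 79.9 CPM in CD29 and 112 and 92.6 CPM in DN, against 255 to 336 CPM in the AP libraries. Tnfrsf1b, which encodes TNF receptor 2, had 233 and 159 CPM in DN, against 58.4 to 86.5 CPM in AP (log2 fold change 1.53, SE 0.23, adjusted p = 0.000418 in edgeR). Leukocytes express this receptor, and the part of their markers, also higher in DN, was not tested. Of the 11 receptor genes, 0 were higher and 2 lower in CD29 against AP, and 2 higher and 1 lower in DN against AP. Over all tested genes 4.41% and 6.74% were called there. The second receptor gene higher in DN was Csf1r, the receptor of colony-stimulating factor 1 on macrophages. None was called between the AP groups or in CD29 against DN.

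Of 28 other interleukin, TNF and colony-stimulating ligands in the list, 27 were in the table and 20 passed the filter. Among those below it were Il4, Il13 and Il17a. Osm, which encodes oncostatin M, a gp130 ligand made by macrophages and neutrophils, was called in 4 comparisons. It had 19.4 and 25.0 CPM in AdipoqTraced and 69.8 and 41.1 CPM in CD26, against 0 and 0.586 CPM in Adipocyte. It had 41.7 and 41.5 CPM in CD29 and 97.0 and 99.7 CPM in DN, against 13.7 to 23.4 CPM in AP. In CD29 and DN, Osm was thus higher than in AP, as Tnf and Il1a were, while Il6, a ligand of the same receptor family, was lower. Against Adipocyte, Osm and Il6 were both higher in AdipoqTraced and CD26. Its log2 fold change was 2.56 in DN against AP (SE 0.29, adjusted p = 4.42e-05 in edgeR) and 1.32 in CD29 against AP (SE 0.30, adjusted p = 0.0173 in edgeR). Il10, an interleukin that restrains inflammation, had 26.9 and 17.9 CPM in CD29 and 48.3 and 41.7 CPM in DN, against 2.73 to 12 CPM in AP. It rose by 3.09 in DN (SE 0.42, adjusted p = 0.000158 in edgeR) and by 2.09 in CD29 (SE 0.45, adjusted p = 0.00939 in edgeR). Macrophage and monocyte markers were also higher in CD29 and DN than in AP. Their part in the levels of Osm and Il10 was not tested. Of the 20 ligands tested, 2 were called higher and 1 lower in CD29 against AP, and 4 higher and 0 lower in DN against AP. The shares called over all tested genes were 4.41% and 6.74%.

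The list of 10 genes for processing and release of the members gave few calls. Rhbdf2 encodes a partner that the TNF-releasing protease ADAM17 needs at the cell surface. It had 28.0 and 18.1 CPM in CD29 and 29.4 and 35.2 CPM in DN, against 4.83 to 7.47 CPM in AP. The log2 fold changes were 2.02 in CD29 (SE 0.35, adjusted p = 0.00213 in edgeR) and 2.49 in DN (SE 0.35, adjusted p = 0.000191 in edgeR). Nlrp3, the sensor of the inflammasome that activates caspase 1, had 38.9 and 17.4 CPM in DN, against 3.48 to 8.01 CPM in AP (log2 fold change 2.37, SE 0.48, adjusted p = 0.00461 in edgeR). These were the only calls of the list in the set: 1 of 10 in CD29 against AP and 2 of 10 in DN against AP. Over all tested genes 4.41% and 6.74% were called there. The part of macrophage and monocyte markers, also higher in CD29 and DN, was not tested.

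In the lists of acute-phase and other induced proteins and of feedback genes, every gene called in CD29 or DN against AP was lower. Fibroblast markers were lower there too, and their part was not tested. Among 15 acute-phase and other induced proteins, 0 were called higher and 10 lower in CD29 against AP, and 0 higher and 6 lower in DN against AP. The shares called over all tested genes were 4.41% and 6.74%. The median log2 fold changes were -1.97 and -1.11, beside 0.10 and 0.00 over all tested genes. Ptx3, which encodes the soluble pattern receptor pentraxin 3, had 154 and 108 CPM in CD29 and 276 and 129 CPM in DN, against 1124 to 1937 CPM in AP. C3, the central complement component, had 99.8 and 61.6 CPM in CD29 and 289 and 99.2 CPM in DN, against 728 to 1975 CPM in AP. For both, every AP library lay above every CD29 and DN library. Ptx3 fell by 3.58 in CD29 (SE 0.30, adjusted p = 2.58e-06 in edgeR), and C3 fell by 3.94 (SE 0.38, adjusted p = 9.16e-06 in edgeR). Saa1, also called lower in both, has the near-identical copy Saa2, so its counts are uncertain.

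Against Adipocyte, the same list went both ways: 2 of 15 higher and 6 lower in AdipoqTraced, and 3 higher and 5 lower in CD26. The shares called over all tested genes were 10.5% and 10.7%. C3, Orm1, Cp and Hp, all acute-phase genes, were lower in both comparisons. Ptgs2, which encodes the prostaglandin synthase COX-2, had 456 and 442 CPM in AdipoqTraced and 1033 and 794 CPM in CD26, against 61.1 and 47.9 CPM in Adipocyte. Its log2 fold change was 3.05 in AdipoqTraced (SE 0.27, adjusted p = 8.9e-07 in edgeR) and 4.08 in CD26 (SE 0.28, adjusted p = 5.53e-08 in edgeR). Saa3 was therefore higher than in Adipocyte while the acute-phase genes just named were lower. Others of the list, such as Serpina3n and Lcn2, were not called in either comparison. Adipocyte markers were also lower in AdipoqTraced and CD26 than in Adipocyte, and their part was not tested.

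Socs3, a feedback inhibitor of gp130 signalling that STAT3 induces, had 562 and 434 CPM in CD29 and 635 and 481 CPM in DN, against 1081 to 1362 CPM in AP. It fell by 1.31 in CD29 (SE 0.22, adjusted p = 0.00189 in edgeR) and by 1.15 in DN (SE 0.22, adjusted p = 0.00302 in edgeR). Socs1 and Irak3 were also called lower in both, and these were the 3 of 15 feedback genes called, with 0 higher. In CD29 and DN against AP, 4.41% and 6.74% of all tested genes were called. Among 20 signalling and transcription factor genes, 0 were higher and 2 lower in each of the 2 comparisons. They were Jak1 and Cebpd, a C/EBP factor of acute-phase promoters, with 88.2 and 67.6 CPM in CD29 and 68.8 and 66.5 CPM in DN, against 214 to 354 CPM in AP. Cebpd fell by 1.86 in CD29 (SE 0.34, adjusted p = 0.00275 in edgeR) and by 2.07 in DN (SE 0.34, adjusted p = 0.000911 in edgeR). Cebpb had 25.4 and 35.0 CPM in AdipoqTraced, against 79.4 and 70.4 CPM in CD26 (log2 fold change -1.31, SE 0.28, adjusted p = 0.0176 in edgeR). Against Adipocyte, 1 of the 20 was higher and 1 lower in AdipoqTraced, and 2 were higher and 2 lower in CD26. Over all tested genes 10.5% and 10.7% were called there. Irf1, an interferon regulatory factor, had 65.6 and 43.7 CPM in AdipoqTraced and 37.3 and 33.4 CPM in CD26, against 398 and 408 CPM in Adipocyte. It fell by 2.88 in AdipoqTraced (SE 0.55, adjusted p = 0.00247 in edgeR) and by 3.51 in CD26 (SE 0.57, adjusted p = 0.000685 in edgeR). Nfkb1, an NF-kappa B subunit, went the other way. It had 294 and 485 CPM in AdipoqTraced and 330.2 and 297 CPM in CD26, against 53.5 and 114 CPM in Adipocyte. Its rises were 2.20 in AdipoqTraced (SE 0.34, adjusted p = 0.00026 in edgeR) and 1.89 in CD26 (SE 0.34, adjusted p = 0.00102 in edgeR).

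**Figure D4:**
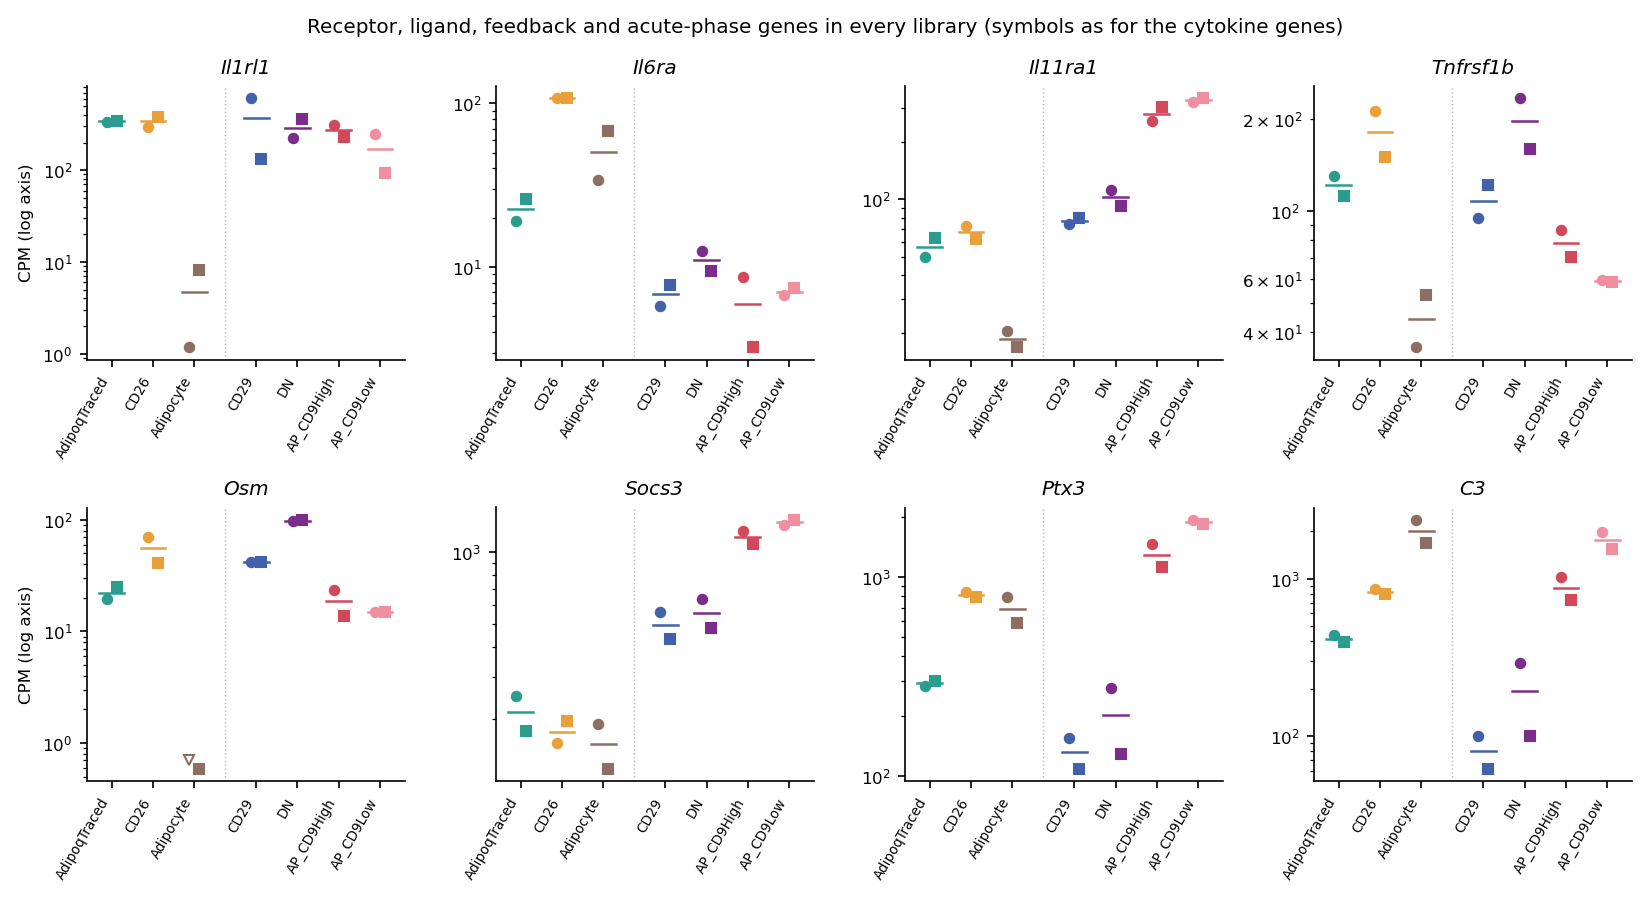
Levels in CPM (log axis) of 8 receptor, ligand, feedback and acute-phase genes in every library, with circles for replicate 1, squares for replicate 2, a line at the group mean and an open triangle at the floor of 3 counts. On the right of the dotted line, Il11ra1, Socs3, Ptx3 and C3 are higher in the AP libraries than in CD29 and DN, and Osm and Tnfrsf1b are lower than in DN.

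Genes with the most similar pattern were sought among 11788 genes with at least 10 CPM in a library. Log2 CPM was centred within each set of libraries, and likeness was the root mean square (RMS) of the difference over the 14 libraries. Il1b was nearest to Itgb2 and Cd14 (both at an RMS difference of 0.23), a leukocyte integrin and a monocyte receptor for bacterial lipopolysaccharide that is among the 12 macrophage and monocyte markers. Tnf was nearest to Cfp and C1qc (both 0.26), complement genes of myeloid cells, and Il1a to Adam8 (0.49). Il6 was nearest to Adgrd1 (0.23), then Ackr3 (0.36) and Tnfaip6 (0.37), a hyaluronan-binding protein induced by TNF. Il33 was nearest to the chemokine gene Ccl2 (0.28), Csf1 to Klf4 (0.26) and Saa3 to Gfpt2 (0.47). For scale, the RMS of the genes' own centred values was 1.32 for Il6, 1.11 for Il1b, 1.19 for Tnf and 1.0 for Il33. Among the 10 genes themselves, the pairs with the smallest differences were Tnf and Il1b (0.37), Il33 and Csf1 (0.43), and Il6 and Il33 (0.47). The member nearest to Saa3 was Il33 (0.64), and the member nearest to Il1a was Il1b (0.82). These are descriptions over libraries that share groups, and the values hold the spread between replicates too.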

How the data were processed

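RNA was measured by sequencing in 14 libraries, 2 in each of 7 groups, made with the SMARTer Ultra Low kit per the labels' protocols. The deposited table holds read counts per gene as whole numbers, not normalised, per the file headers and the values. Per the submitters' processing notes, HISAT2 2.1, StringTie 1.3.3b, CASAVA 1.8.2 and DESeq2 were among the tools and mm10 was the build; which tool did what is not stated there. Annotation and strand setting: not given in the sources used here. Symbols, positions and exon lengths came from GENCODE M21 (mm10), in which 52489 of 52636 identifiers matched.

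The test was edgeR 4.0.16 (R 4.3.3): TMM scaling, filterByExpr, 1 coefficient per group over all 14 libraries, glmQLFit with robust = TRUE and legacy = FALSE, and a two-sided quasi-likelihood F test, with Benjamini-Hochberg adjustment over 18394 genes in each of 7 comparisons. The legacy setting was chosen after results of both were seen. The fit left 7 residual degrees of freedom. SE was approximated as the size of the log2 fold change over the root of its F value. The script was tested on simulated data. AP is the mean of both AP coefficients (weight 0.5 each). The floor is 3 counts, which covers counting error only, since amplified reads are not independent molecules. Nothing in the labels ties the replicates to separate animals. A p-value here therefore measures the spread between libraries that may be technical replicates.

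The members, the 6 gene lists and the 9 marker lists were chosen with earlier results of these data known. Beside the members, the rule named the 2 called genes with the smallest p in each list and comparison and the 3 genes nearest in pattern, and not all are printed. Csf1r, Thy1, Il4, Il13, Il17a and the genes named without a value were chosen after their values were seen. Only the marker lists that a result in the text turns on are described. Alternatives were DESeq2 1.42.0, its size factors, library size alone, no mitochondrial genome genes, no filter, the legacy setting, replicate blocks, each set alone and each library left out.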

Additional observations from a re-analysis of the deposited data

How the results depend on the processing

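The number of the 10 genes called changed by over 1.5 times in 4 of the 7 comparisons. In AdipoqTraced against Adipocyte it was 6, or 10 with library size alone, and 5 to 6 without a library. In AdipoqTraced against CD26 it was 1, or 2 with DESeq2 and 0 with library size alone, without the filter, with the legacy setting (chosen after seeing the data) or with the libraries of the set alone, and 0 to 1 without a library. In CD29 against AP it was 8, or 4 with the legacy setting, and 5 to 7 without a library. In CD29 against DN it was 0, or 1 with DESeq2. It was 6 to 10 for the 7 of CD26 against Adipocyte, 6 to 8 for the 8 of DN against AP and 0 throughout for AP_CD9High against AP_CD9Low. The counts over all genes moved more: without a library 1929 became 958 to 1981, 709 became 70 to 887, 1961 became 969 to 1402, 4 became 0 to 5, 811 became 343 to 614, 1240 became 669 to 984 and 11 became 5 to 15, in the order of the 7 comparisons of the text (AdipoqTraced against Adipocyte, AdipoqTraced against CD26, CD26 against Adipocyte, AP_CD9High against AP_CD9Low, CD29 against AP, DN against AP and CD29 against DN). Under the other alternatives they were 1341 to 8207, 78 to 1251, 1437 to 6502, 0 to 55, 383 to 1124, 423 to 1489 and 2 to 109. With library size alone, 88.0% of the calls were higher in AdipoqTraced against CD26, 76.9% in CD29 against AP, 81.3% in DN against AP and 29.4% in CD29 against DN, against 61.5%, 57.5%, 67.7% and 18.2%.

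The labels do not say whether equal replicate numbers mark a shared animal or sort. By the numbers in the titles, the replicate differences of 2 groups correlated at -0.03 to 0.05 across genes. Counting error in the many low genes can hide a shared difference, so these values do not show whether libraries are paired. A replicate block, by the number in the titles or that in the descriptions, left 0 members called in AdipoqTraced against CD26. It also ended the call of Il1rn in CD29 against AP (adjusted p = 0.0594 and 0.0932 with the 2 numberings) and, by the numbers in the descriptions, of Il1rn in DN against AP (adjusted p = 0.103).

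Of the fold changes of single genes, 864 kept their direction and call, 48 lost and 14 gained a call, and 24 changed sign, none of them called. In AdipoqTraced against CD26, Il1b was 0.19 with library size alone, and Tnf -0.02 with DESeq2 size factors and -0.01 with DESeq2. In CD29 against DN, Il6 was 0.04 with library size alone and 0.02 without the filter. Without 1 library, the log2 fold changes that crossed 0 ran in AdipoqTraced against CD26 over -0.58 to 0.17 (Il1b), -2.48 to 0.53 (Il11), -0.50 to 1.06 (Lif), -0.37 to 0.59 (Tnf), -0.09 to 0.19 (Csf1) and -0.09 to 0.48 (Saa3). For Il11 they ran over -0.29 to 1.26 in AP_CD9High against AP_CD9Low, -0.07 to 1.42 in CD29 against AP, -0.21 to 0.99 in DN against AP and -0.58 to 1.11 in CD29 against DN. For Lif they ran over -1.53 to 0.23 in CD29 against AP and -0.90 to 0.86 in CD29 against DN, where Il6 ran over -0.30 to 0.38 and Csf1 over -0.57 to 0.15. The cause was not tested. Depth limits the Adipocyte levels, where Il11 was at 0 and Lif at 3 counts, each in 1 library.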
